A study of Mus musculus with 44 samples.

Results

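Ldha, Pgk1 and Hk2 encode 3 enzymes of glucose breakdown and were read in 44 single cells sorted as osteomacs, the macrophages of bone surfaces. The genes were chosen by name, with earlier results of these data known, and all 3 are among the 3613 genes of the deposited table. The study cultured 100000 neonatal calvarial cells of C57BL/6J mice for 16 h and sorted cells positive for CD45 and F4/80 and negative for CD41, a surface protein of megakaryocytes and platelets. The 20 cells labelled as cultured with 50000 added megakaryocytes, all on plate 7, are called plus-MK cells. The 24 cells labelled as cultured without them, all on plate 3, are called no-MK cells, although their titles name megakaryocytes as well. Since the labels do not tie cells to cultures or animals, each group is 1 sample and its cells are not replicates. Plate and treatment cannot be told apart. No test between the groups was therefore made, and the values describe these cells.

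The sort label held for the plus-MK cells only. The 17 listed macrophage markers, of 18 on the list, together reached a median of 27226 CPM in plus-MK cells, from 8396 to 63712, and of 11.4 CPM in no-MK cells, from 0 to 119. CPM is recovered reads × 1e+06 / library reads. The 7 listed osteoblast and fibroblast markers, of 16 on the list, together reached a median of 11.2 CPM in plus-MK cells, from 3.88 to 196, and of 10051 CPM in no-MK cells, from 4276 to 98080. Ptprc, the gene of CD45, had reads in 20 of 20 plus-MK cells and 1 of 24 no-MK cells, and Adgre1, the gene of F4/80, in 17 of 20 and 1 of 24. Every difference below is therefore one between cells with macrophage transcripts and cells with stromal transcripts, and the part of cell type in it was not tested. Of 11 megakaryocyte and platelet markers only Pf4, which macrophages also express, is listed. It had a median of 183 CPM in plus-MK cells, from 0 to 8749, and of 0 CPM in no-MK cells, from 0 to 4.55. Library reads had a median of 834834 in plus-MK cells, from 69181 to 1212604, and of 527930 in no-MK cells, from 270537 to 714465. Plus-MK cells 11 and 16 had only 69181 and 71585 reads. Cell 16 also stood apart in its RNA, with 245233 CPM of the nuclear RNA Malat1, against at most 19034 CPM in the other plus-MK cells, and 8451 CPM of Actb, against at least 52120 CPM.

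Glycolysis turns glucose into pyruvate in the cytosol and yields ATP without oxygen. Hexokinase 2, the product of Hk2, is an inducible isoform of the enzyme that traps glucose as glucose 6-phosphate at the entry of the pathway, and it can bind the outer mitochondrial membrane. Phosphoglycerate kinase 1, the product of Pgk1, carries out the first step that yields ATP. The A subunit of lactate dehydrogenase, the product of Ldha, acts at the exit, where pyruvate is turned into lactate and NAD+ is restored. In macrophages the pathway is known to be raised on inflammatory activation, and all 3 genes are well known targets of the hypoxia-inducible factor HIF-1, which binds the sequence ACGTG.

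On the mm10 build Ldha lies on chromosome 7 at 46841475 to 46855627 (plus strand), Pgk1 on chromosome X at 106187100 to 106203699 (plus strand) and Hk2 on chromosome 6 at 82725025 to 82774454 (minus strand), all as protein-coding genes of GENCODE vM21. The 250 bases before the transcription start are shown for each gene because this HIF-1 core motif is what the 3 promoters are best known to share. They are RefSeq windows on GRCm38.p6, the assembly of mm10, written along the gene, with each ACGTG on either strand in capitals. Overlapping matches are merged, so that the palindrome CACGTG is 1 stretch.
Ldha, chr7:46845554-46845803: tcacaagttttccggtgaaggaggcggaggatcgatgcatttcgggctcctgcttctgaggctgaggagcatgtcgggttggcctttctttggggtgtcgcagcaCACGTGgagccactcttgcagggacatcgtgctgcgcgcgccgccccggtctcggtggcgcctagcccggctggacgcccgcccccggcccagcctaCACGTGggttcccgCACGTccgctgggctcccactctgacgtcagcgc
Pgk1, chrX:106186850-106187099: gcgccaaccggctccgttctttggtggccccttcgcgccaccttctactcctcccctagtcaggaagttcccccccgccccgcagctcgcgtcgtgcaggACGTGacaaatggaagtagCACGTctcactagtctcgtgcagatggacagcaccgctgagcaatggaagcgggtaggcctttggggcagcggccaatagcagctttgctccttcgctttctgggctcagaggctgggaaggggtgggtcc
Hk2, chr6:82774455-82774704: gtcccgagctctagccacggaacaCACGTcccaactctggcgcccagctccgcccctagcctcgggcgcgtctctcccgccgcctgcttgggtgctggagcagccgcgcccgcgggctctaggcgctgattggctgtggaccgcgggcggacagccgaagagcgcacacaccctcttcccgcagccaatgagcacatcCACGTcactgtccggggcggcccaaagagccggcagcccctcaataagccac
The Ldha window holds 3 such stretches, of which 2 are the E-box CACGTG, the Pgk1 window holds 2 and the Hk2 window holds 2. A second RefSeq start of Ldha, with the window from 46846832 to 46847081, holds none. Both Ldha windows lie inside the gene span given above. Bases just after the start were found in a GENCODE vM21 transcript of the gene for Pgk1, Hk2 and this second Ldha window. For the Ldha window shown they were not, so that start was not matched to an annotated transcript. Of all 32851 windows of this length in the table, 16.6% hold ACGTG on either strand and 6.02% hold CACGTG. GC content was 67.2% for the first Ldha window, 62.8% for Pgk1 and 69.6% for Hk2, against a median of 52.4% over all windows. These matches describe the sequence and say nothing of binding in these cells, which was not measured.

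Ldha was lower in plus-MK cells. It had a median of 303 CPM in plus-MK cells, from 2.29 to 1163, and of 1184 CPM in no-MK cells, from 40.1 to 2010. The groups overlapped, and 16 of 20 plus-MK cells lay below the lower quartile of no-MK cells, 816 CPM, and 13 of 24 no-MK cells lay above the highest plus-MK cell. Every cell of both groups had a read. The sums were 7380 reads in plus-MK cells (95% Poisson interval 7213 to 7550) and 13333 reads in no-MK cells (13108 to 13561), which is 472 CPM in plus-MK cells and 1074 CPM in no-MK cells. Pooled, Ldha was thus 2.28-fold lower in plus-MK cells (exact 95% interval 2.21 to 2.34) or −1.19 in log2. These intervals cover counting error only, since reads without molecular identifiers are not independent molecules. On average log2(CPM + 1) was 7.86 ± 2.18 (SD, 20 cells) in plus-MK cells and 9.82 ± 1.16 (SD, 24 cells) in no-MK cells. The difference of −1.96 was smaller than the spread between plus-MK cells.

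Pgk1 was read far more sparsely. It had a median of 9.51 CPM in plus-MK cells, from 0 to 111, and of 30.7 CPM in no-MK cells, from 0 to 67.0. It had reads in 12 of 20 plus-MK cells (60.0%, exact Clopper-Pearson 95% interval 36.1 to 80.9%) and in 23 of 24 no-MK cells (95.8%, 78.9 to 99.9%). With every cell thinned to 310000 reads and 2 shallower cells per group dropped, it had reads in 11 of 18 plus-MK cells and 21 of 22 no-MK cells. In the 8 plus-MK cells without a read, a count of 0 still allows 3.44 to 43.4 CPM (3 reads over each cell's library), the highest in the 2 shallow cells. The sums were only 340 reads in plus-MK cells (305 to 378) and 417 reads in no-MK cells (378 to 459), or 21.7 and 33.6 CPM, 1.54-fold lower in plus-MK cells (1.34 to 1.79) or −0.63 in log2. Mean log2(CPM + 1) was 2.63 ± 2.42 in plus-MK cells and 4.57 ± 1.62 in no-MK cells, a difference of −1.93. Plus-MK cell 19, the only cell above every no-MK cell, held 36.2% of its group's Pgk1 reads, and without it the log2 ratio was −1.17.

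Hk2 was the member whose pooled level differed least, and the one most scattered on the log scale among plus-MK cells. It had a median of 549 CPM in plus-MK cells, from 1.14 to 4267, and of 834 CPM in no-MK cells, from 99.3 to 2433. All cells had a read, yet 6 of 20 plus-MK cells lay below the lowest no-MK cell and 1, cell 6, above the highest. The sums were 12288 reads in plus-MK cells (12072 to 12507) and 12455 reads in no-MK cells (12237 to 12676), or 786 and 1003 CPM, 1.28-fold lower in plus-MK cells (1.25 to 1.31) or −0.35 in log2. Mean log2(CPM + 1) was 7.99 ± 2.87 in plus-MK cells and 9.64 ± 1.09 in no-MK cells, a difference of −1.66. The mean log gives every cell the same weight, the 6 low ones included, while in the sum cell 6 alone held 24.6% of the group's Hk2 reads. Without cell 6 the log2 ratio of the pooled level was −0.69, and without no-MK cell 21, the highest of its group, it was −0.22.

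**Figure D1:**
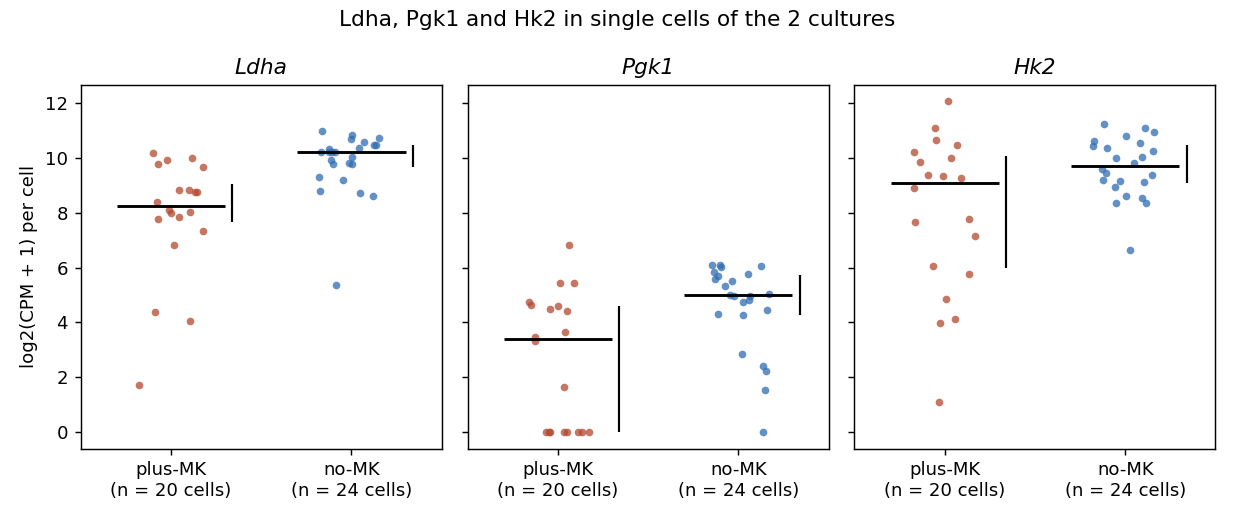
Level of Ldha, Pgk1 and Hk2 in each cell, as log2(CPM + 1), for 20 plus-MK and 24 no-MK cells (points), with the group median (horizontal bar) and the range from the lower to the upper quartile (vertical bar). The medians of plus-MK cells are lower for all 3 genes, 8 plus-MK cells lie at 0 for Pgk1, and 6 plus-MK cells lie below every no-MK cell for Hk2.

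Differences of this size were common among all genes. Of the 3271 genes read in 10 or more cells, 28.3% had a pooled level at least 2-fold lower in plus-MK cells and 24.4% at least 2-fold higher. Of the 3 members only Ldha passed 2-fold, on the lower side. Pooled levels were lower in plus-MK cells for 53.4% of these genes, and mean log levels for 72.2%, so a lower mean log level was the common case. The median over all genes was −0.14 for the log2 ratio and −1.10 for the mean log difference, and each member lay below both. Per kilobase of the longest coding transcript, Ldha reached 260 CPM in plus-MK cells and 592 in no-MK cells, and Pgk1 reached 11.9 and 18.4 CPM. By this measure of level Ldha stood 1.82-fold above Hk2 in plus-MK cells and 3.25-fold above it in no-MK cells, although Hk2 had the higher CPM in plus-MK cells.

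Near-identical gene copies bear on how far the levels can be trusted. Of the bases of the longest coding Pgk1 transcript, 68.8% lay in stretches of at least 150 bases, the read length, with at least 95% identity to another annotated gene. The 4 genes concerned are processed pseudogenes, and the closest reached 100% identity. For Ldha the share was 55.0%, also with 4 processed pseudogenes, of at most 95.9% identity. Hk2 had no such copy. How reads with several matches were counted is not given in the sources used here, so their part in the low Pgk1 level was not tested. Gapdh, the enzyme just before Pgk1 in the pathway, had copies in 79 other genes over 88.0% of its transcript. It was read at 56.4 CPM in plus-MK cells and 49.9 CPM in no-MK cells. Other genes of the pathway differed. In plus-MK cells Pkm, with 65.5% of its bases shared, had 1341 CPM, Gpi1, with 50.2%, had 498 CPM, and Pgam1, with 43.1%, had 6.91 CPM. Tpi1, with 19.3%, had 85.3 CPM. Of the listed genes without a copy, Pfkfb3 had 1.98 CPM in plus-MK cells, Slc16a1 45.6, Hk3 62.7, Bsg 111, Hk2 786 and Aldoa 1257. Whether copies go with level over these genes was not tested.

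The members varied less between cells than most genes did. The coefficient of variation of CPM was 0.836 for Ldha over plus-MK cells and 0.457 over no-MK cells, below that of 91.1% and 95.2% of the 3271 genes. For Pgk1 it was 1.53 and 0.655, below that of 63.5% and 84.8% of them, and for Hk2 1.30 and 0.636, below 73.0% and 85.9%. The 3271 genes were not matched to the members by level, on which this coefficient also depends. The medians over these genes were 1.81 in plus-MK cells and 1.25 in no-MK cells, so the wider scatter of plus-MK cells was shared by genes in general.

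Ldha and Pgk1 moved together over the no-MK cells, and Hk2 moved against both. The Spearman correlation of CPM over the 24 cells was 0.67 between Ldha and Pgk1, −0.57 between Ldha and Hk2 and −0.36 between Pgk1 and Hk2. All cells share 1 plate and may share a capture, and the values of a cell share its library total. Cell 21 shows the pattern at its extreme, with the lowest Ldha of the group, 40.1 CPM, 4.30 CPM of Pgk1 and the highest Hk2, 2433 CPM. Cell 24 had 1433 CPM of Ldha, 31.2 CPM of Pgk1 and the lowest Hk2, 99.3 CPM. Cell 9, without a Pgk1 read, had 419 CPM of Ldha and 2158 CPM of Hk2. The pattern did not rest on such cells alone. Leaving out each cell in turn gave 0.63 to 0.74 for Ldha and Pgk1, −0.63 to −0.51 for Ldha and Hk2 and −0.45 to −0.28 for Pgk1 and Hk2, and without cells 21 and 4, the farthest from the median of Ldha, the first 2 values were 0.60 and −0.51. Partial correlations given the library reads were 0.68, −0.57 and −0.36.

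Among all genes the correlations of Ldha with Pgk1 and with Hk2 stood near the ends of the range, and that of Pgk1 with Hk2 did not. Of 2623 other genes read in at least 12 of the 24 no-MK cells, 2 had a higher correlation with Ldha than Pgk1, and 8 had a lower one than Hk2. With Hk2, 16 of 2623 genes had a lower correlation than Ldha, and 229 a lower one than Pgk1. The middle 95% of genes lay between −0.41 and 0.51 for Ldha and between −0.48 and 0.38 for Hk2, with medians of 0.05 and −0.06. The genes are not independent of each other, and no test was made of this. Beside the members' values, the Actb level had a Spearman correlation of 0.51 with Ldha and −0.38 with Hk2 over the same cells, and Malat1 one of −0.26 with Ldha and 0.42 with Hk2. Whether Actb or Malat1 carries the relation was not tested. Library reads had −0.07 with Ldha, 0.04 with Pgk1 and −0.02 with Hk2.

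In the plus-MK cells the correlations were smaller in size and changed somewhat without the shallow cells, and that of Ldha and Pgk1 fell given depth. Over 20 cells the Spearman correlation was 0.44 between Ldha and Pgk1, −0.20 between Ldha and Hk2 and 0.20 between Pgk1 and Hk2. Of 2203 other genes read in at least 10 of these cells, 231 had a higher correlation with Ldha than Pgk1. Without the shallow cells 11 and 16 the values were 0.31, −0.34 and 0.11, and without cell 16 alone 0.37, −0.30 and 0.13. Pgk1 went with depth in this plate, with a correlation of 0.75 with library reads and of 0.71 with the number of listed genes with a read, and Ldha with 0.41 and 0.61. Given the library reads, the correlation of Ldha and Pgk1 was 0.21, and given the number of listed genes it was 0.01. Cells with much Ldha and little Hk2 occurred here too, such as cell 14 with 968 CPM of Ldha and 16.2 CPM of Hk2, and so did the reverse, in cell 18 with 15.7 CPM of Ldha and 2205 CPM of Hk2. Cells 7, 11, 13, 15 and 16 lay below the group's median for all 3 genes, cells 11 and 16 being the shallow ones. Cell 7 had 2.29 CPM of Ldha, no Pgk1 read and 65.3 CPM of Hk2, at a library of 873123 reads. Whether the correlations differ between the plates was not tested.

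**Figure D2:**
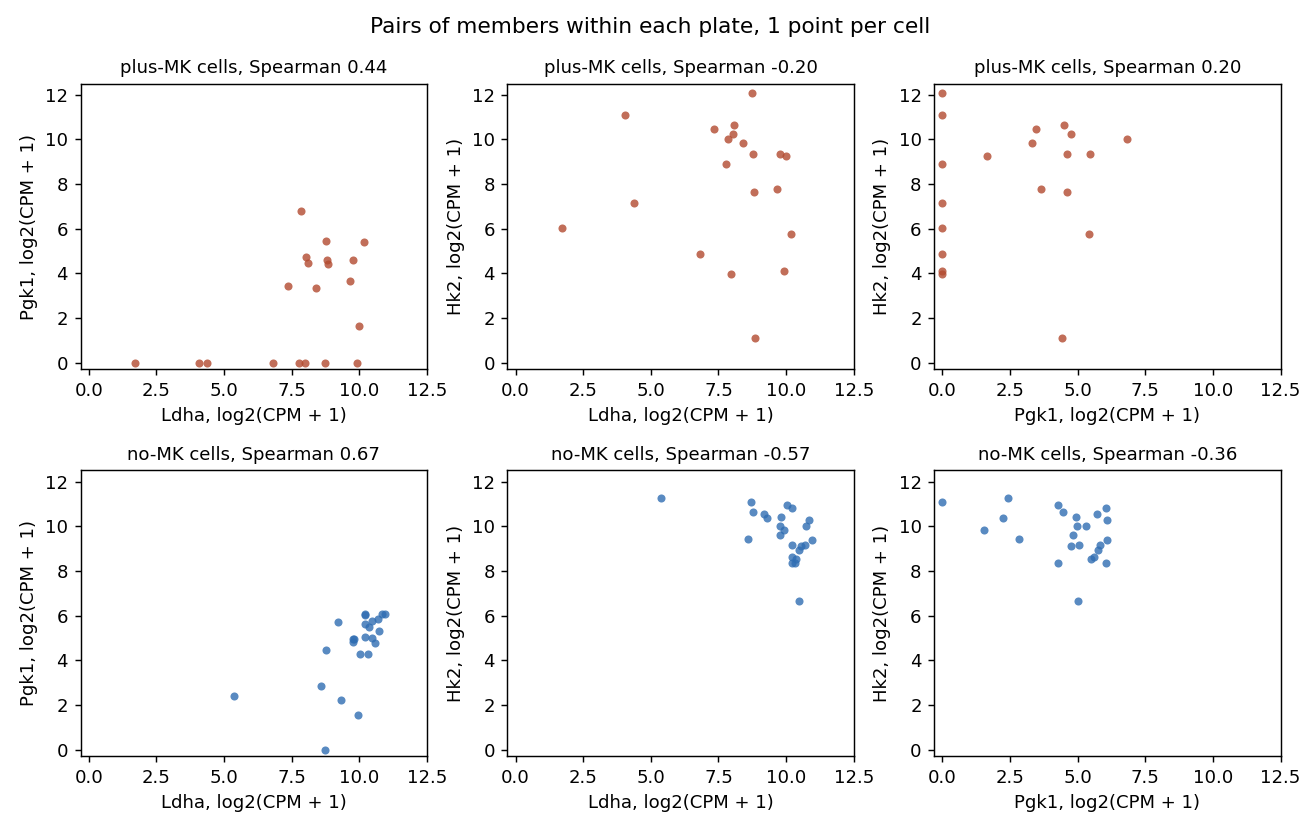
Pairs of Ldha, Pgk1 and Hk2 in each of the 20 plus-MK cells (upper row) and 24 no-MK cells (lower row), as log2(CPM + 1) on both axes, 1 point per cell. In no-MK cells Pgk1 is higher where Ldha is higher (Spearman 0.67) and Hk2 lower (−0.57), while in plus-MK cells the points scatter (0.44 and −0.20).

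The other enzymes of the pathway ranged from near the median of all genes to the upper end in their correlation with Ldha and Pgk1 over the no-MK cells. The middle 95% of genes lay between −0.41 and 0.51 for Ldha and between −0.38 and 0.53 for Pgk1, with medians of 0.05 and 0.09. Glucose 6-phosphate isomerase, the product of Gpi1 and the enzyme that follows hexokinase, had a correlation of 0.59 with Ldha and 0.56 with Pgk1, above both ranges. Pkm, which encodes pyruvate kinase, the last step before lactate dehydrogenase, had 0.39 with Ldha and 0.64 with Pgk1, and the aldolase gene Aldoa 0.30 and 0.59. The triosephosphate isomerase gene Tpi1 had 0.44 and 0.46, Gapdh 0.42 and 0.37, and Pgam1, the phosphoglycerate mutase gene, 0.14 and 0.07, close to the medians. With Hk2 the same genes had −0.27 for Gpi1, −0.40 for Pkm, −0.03 for Aldoa, −0.37 for Tpi1, −0.23 for Gapdh and −0.30 for Pgam1. In plus-MK cells Aldoa had 0.31 with Ldha, 0.60 with Pgk1 and 0.45 with Hk2, Gapdh had 0.29, 0.70 and 0.23, and Pkm had 0.48, 0.36 and 0.28. Gpi1 had 0.10, 0.11 and 0.20, Tpi1 had −0.04, −0.07 and −0.46, and Pgam1 had 0.48, 0.15 and −0.06. Of these 6 genes only Tpi1 thus had negative values with Ldha and Pgk1 in plus-MK cells, and Tpi1 and Pgam1 with Hk2. The hexokinase gene Hk3, read in 11 of 20 plus-MK cells, had −0.27 with Ldha, −0.15 with Pgk1 and −0.06 with Hk2. Bsg, a gene of lactate export, had −0.20, 0.00 and 0.12 in plus-MK cells and 0.36, 0.34 and −0.30 in no-MK cells. Slc16a1, also of lactate export, had 0.08, −0.04 and −0.16 in no-MK cells. The middle 95% of the 2203 genes lay between −0.34 and 0.56 for Ldha, with a median of 0.13. For Pgk1 they lay between −0.34 and 0.59, with a median of 0.14, and for Hk2 between −0.42 and 0.45. Aldoa, narrowly, and Gapdh lay above the range for Pgk1, and Tpi1 below that for Hk2. These values were not adjusted for depth, and Pgk1 had a correlation of 0.75 with library reads in plus-MK cells.

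**Figure D3:**
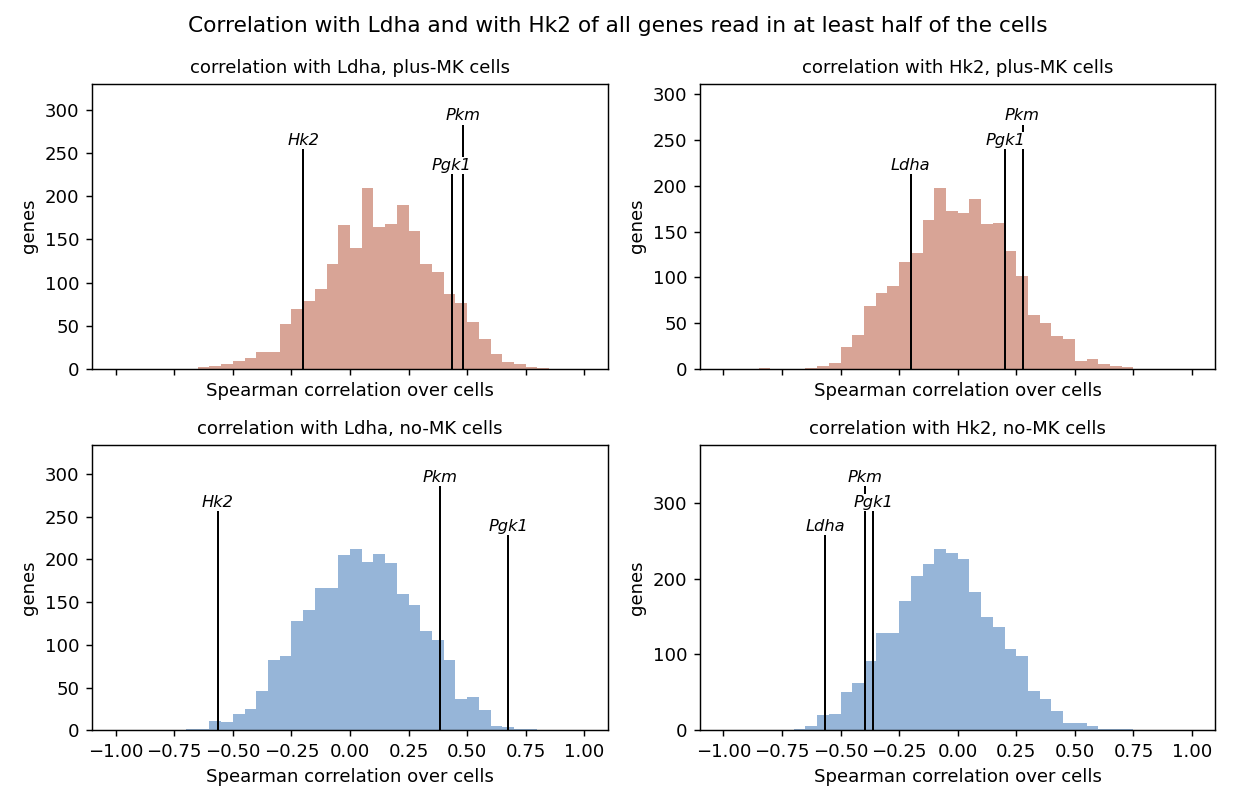
Distribution of the Spearman correlation over cells between Ldha (left) or Hk2 (right) and every other gene read in at least 10 of 20 plus-MK cells (upper row, 2203 genes) or 12 of 24 no-MK cells (lower row, 2623 genes), with lines at the other members and Pkm. In no-MK cells Pgk1 lies at the upper end for Ldha (0.67), Hk2 at the lower end (−0.57), and Ldha at the lower end for Hk2.

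The genes most like each member differed between the plates. In plus-MK cells Ldha was most like Snrpd2, a core protein of the spliceosome (0.81), Skp1a, a ubiquitin ligase subunit (0.80), and Ptges3, a co-chaperone (0.76). In no-MK cells it was most like Tmem50b (0.79), the translation factor gene Eif5a (0.71) and Pgk1 (0.67). Pgk1 was most like Atf6, a sensor of endoplasmic reticulum stress (0.79), the mitochondrial ADP/ATP carrier gene Slc25a5 (0.78) and Supt4a (0.78) in plus-MK cells, and like the mitochondrial chaperonin gene Hspe1 (0.80), the cargo receptor gene Lman1 (0.75) and Tubg1 (0.73) in no-MK cells. Hk2 was most like Selk (0.73), Ift20 (0.71) and the DNA demethylase gene Tet2 (0.67) in plus-MK cells, and like the histone methyltransferase gene Ehmt1 (0.72), the autophagy gene Map1lc3b (0.67) and Tusc3 (0.62) in no-MK cells. Each value is a Spearman correlation of CPM over the 20 or 24 cells of a plate. These genes were picked as the highest of 2203 genes in plus-MK cells and 2623 in no-MK cells, so their values are high by selection. In plus-MK cells Ldha and Pgk1 also had correlations of 0.41 and 0.75 with library reads. Whether the genes most like a member differ between the plates beyond this was not tested.

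The listed genes of the pathway, the 3 members included, went both ways, and the shares past 2-fold were below those of all genes. Of 35 genes of glycolysis and lactate export on the list, 13 are listed and all 13 had a read in at least 10 cells. By pooled level 5 were higher and 8 lower in plus-MK cells, and 2 and 3 of them passed 2-fold, which is 15.4% and 23.1% against 24.4% and 28.3% of the 3271 genes. All 3 members are among the 8 lower genes, and 53.4% of the 3271 genes were lower by pooled level. The median log2 ratio of the list was −0.35, which is the value of Hk2, against −0.14 for the 3271 genes. Those past 2-fold on the lower side were Ldha, Slc16a1, which encodes the lactate transporter MCT1, and Bsg, which encodes basigin, the partner that brings that transporter to the membrane. Slc16a1 had 713 reads in 8 of 20 plus-MK cells and 1559 reads in 20 of 24 no-MK cells, and was 2.75-fold lower in plus-MK cells (2.52 to 3.01). Bsg stood at 111 CPM in plus-MK cells and 245 CPM in no-MK cells, 2.21-fold lower (2.08 to 2.34). Plus-MK cell 3 held 62.3% of its group's Slc16a1 reads, and without it Slc16a1 was 6.83-fold lower. Pkm was 2.52-fold higher in plus-MK cells (2.45 to 2.59), at 1341 and 533 CPM, and Hk3, a hexokinase of myeloid cells, had 980 reads in plus-MK cells and 1 in no-MK cells. With so few reads its log2 ratio of 9.60 has a counting interval of 7.12 to 14.91.

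The steps between differed less. Gpi1 stood at 498 CPM in plus-MK cells and 277 CPM in no-MK cells, Aldoa at 1257 and 966, and Gapdh at 56.4 and 49.9. Tpi1 stood at 85.3 and 95.8 CPM, Pgam1 at 6.91 and 9.58, and Pfkfb3, which sets the level of an activator of phosphofructokinase, at 1.98 and 2.82 with a ratio whose counting interval spans 1 (0.419 to 1.17). Without plus-MK cell 7 the log2 ratio of Tpi1 was −0.97, against −0.17 with it, and without plus-MK cell 15 that of Pgam1 was −1.34, against −0.47. Pfkfb3 had −1.47 without plus-MK cell 4 and 0.97 without no-MK cell 12, so that its direction rests on single cells. For Gpi1, Gapdh and Pfkfb3 the mean log level went the other way, and with the reads of the listed genes as the total 4 of the 13 genes were higher and 9 lower. Because Ldha was lower and Pkm higher, their balance within a cell differed more than either level. This ratio was chosen after the values were seen. A plus-MK cell had a median of 0.274 Ldha reads per Pkm read, from 0.00334 to 1.63, and a no-MK cell 2.19, from 0.865 to 25.1. More Ldha than Pkm reads occurred in 2 of 20 plus-MK cells and in 22 of 24 no-MK cells. Only those 2 plus-MK cells, 4 and the shallow cell 16, reached the range of the no-MK cells.

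**Figure D4:**
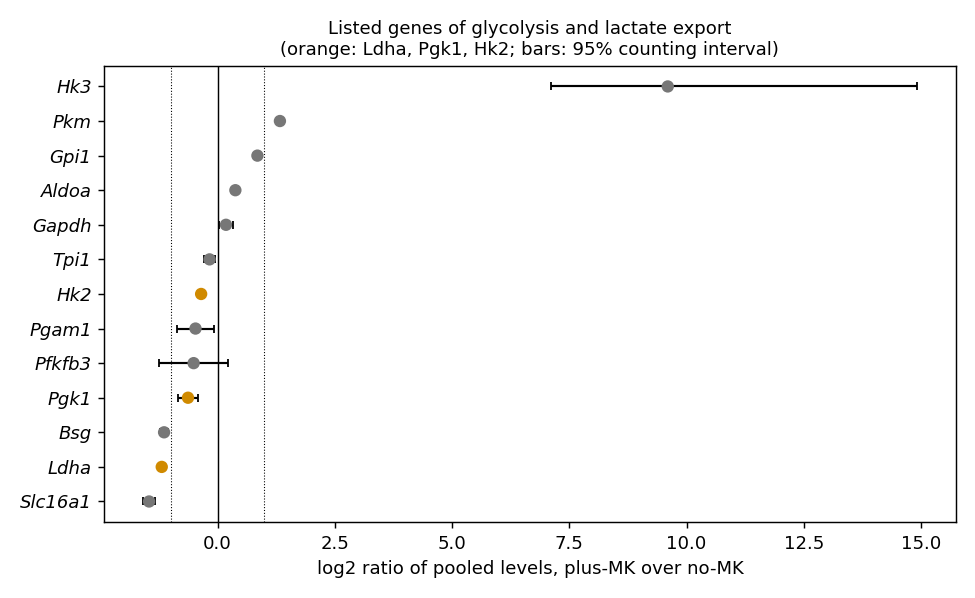
Log2 ratio of pooled levels, plus-MK over no-MK cells, for the 13 listed genes of glycolysis and lactate export (points; Ldha, Pgk1 and Hk2 in orange), with exact 95% counting intervals (bars) and dotted lines at 2-fold. Slc16a1, Ldha and Bsg lie below the lower line, Pkm and Hk3 above the upper one, and Pgk1 (−0.63) and Hk2 (−0.35) between the lines.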

How the data were processed

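The authors deposited 1 table of 3613 genes and 44 cells, with no unit in its header. Per the labels' protocols and the design text, cells that passed quality testing were kept. They were captured on a Fluidigm C1 and made into SMART-Seq cDNA and Nextera XT libraries, read as paired ends of 150 bases. Per the submitters' processing notes the build was mm10 and Seurat was used. The aligner was not given in the sources used here, nor was the counter. The deposited values are a signal of the form reads × 1e+09 / (library reads × a whole number), in which the whole number is fixed for each gene. It was 14 for Ldha, 2 for Pgk1 and 1446 for Hk2. Over 3478 genes it had no relation to exon length (Spearman −0.02). It was largest for Fth1, Ctsb, Actb, Gpnmb and Malat1, and over genes it correlated with the reads of each plus-MK cell (0.21 to 0.32) and of each no-MK cell (0.11 to 0.20). Deposited values therefore compare cells within a gene, not genes.

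Library reads were read from the commonest value of a cell, and came within 0.0003 of whole numbers. With the smallest fitting divisor for a gene, 99807 of 99807 values above 0 were whole reads (tolerance 0.0001). The recovery of divisors and reads was checked on simulated data with known reads. There the library totals were given, so the reading of library reads from the commonest value was not part of that check. CPM is recovered reads × 1e+06 / library reads, and is not a deposited unit. No pair of cells had identical values, no cell was removed and no doublet caller was run. The 3 genes and all lists were chosen with earlier results of these data known. Other genes named are the listed members of the glycolysis list, the 3 members with the largest log2 ratio of each other list (others named there were chosen after their values were seen), and for each member and plate the 3 genes with the highest Spearman correlation, predicted genes passed over. No count model was fitted, since each group is 1 sample. Alternatives were other totals and scalings, pseudocounts, thinning, the deposited values and leaving out cells. Near-identical transcripts were found with blastn 2.17.0 in GENCODE vM21. Python 3.11.15, scipy 1.17.1 and pandas 2.3.3 were used.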

Additional observations from a re-analysis of the deposited data

How the results depend on the processing

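No paired analysis was possible because cells of the 2 plates share only a serial number and no test was run between the groups. Of 90 alternative values of 20 results that change a setting or leave out several cells, 74 stayed close to the value reported. The other 16 moved, and 0 of the 90 changed sign against it. For levels and shares of cells, close meant within the counting interval or the spread between cells. Correlations and counts of list genes have neither, and the margin used for them is not given here. With listed reads as the total, which shifts all log2 ratios by −0.26, Ldha had −1.45, Pgk1 −0.89 and Hk2 −0.61. Median-ratio scaling, a shift of 0.15, gave Ldha −1.04 and Hk2 −0.20. Without the top cell of each group the ratios were −1.25, −1.09 and −0.56, on thinned cells −1.25, −0.95 and −0.24, and for the mean of deposited values −1.36 for Ldha and −0.97 for Pgk1. Means weight cells equally and sums weight deep cells more. The mean log difference of Pgk1 was −5.12 on deposited values, −3.10 with a pseudocount of 0.1 and −0.88 with a pseudocount of 10, since the cells at 0 take their log value from the pseudocount. In plus-MK cells the correlation of Ldha and Pgk1 was 0.21 given library reads and 0.01 given the listed genes with a read. Leaving out each cell in turn, a choice made for the correlations and the list genes after seeing the data, moved 41 of 264 values of the members (17 of 44 log2 ratios for Ldha, 1 of 44 for Pgk1 and 23 of 44 for Hk2) and turned 0 round. It gave log2 ratios from −1.31 to −1.10 for Ldha, −1.17 to −0.54 for Pgk1 and −0.69 to −0.22 for Hk2. In plus-MK cells it gave correlations from 0.37 to 0.55 for Ldha and Pgk1, −0.30 to −0.11 for Ldha and Hk2 and 0.13 to 0.33 for Pgk1 and Hk2, and in no-MK cells from 0.63 to 0.74, −0.63 to −0.51 and −0.45 to −0.28.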

Other observations

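Genes that draw on the intermediates of glycolysis went both ways. Of 27 side-branch genes on the list 9 are listed, 2 with a higher and 7 with a lower pooled level in plus-MK cells, and 2 and 5 of them passed 2-fold, which is 22.2% and 55.6% against 24.4% and 28.3% of all genes read in 10 or more cells. Among all those genes 53.4% had a lower pooled level. Both higher side-branch genes encode enzymes of the pentose phosphate pathway. Tkt, the transketolase gene, was 5.79-fold higher (5.20 to 6.47), at 175 CPM in plus-MK cells and 30.3 CPM in no-MK cells, and Taldo1, the transaldolase gene, stood at 535 and 264 CPM. Pgls and Pgd, of the oxidative steps of the same pathway, were lower in plus-MK cells, with ratios of 0.412 (0.344 to 0.491) and 0.773 (0.734 to 0.814), as was Gpd2, of the glycerol phosphate shuttle, with 0.813 (0.742 to 0.891). Without plus-MK cell 5, Gpd2 had a ratio of 0.264. The 3 largest differences were on the lower side. Pgm2, a sugar phosphate mutase, had 3 reads in plus-MK cells and 392 in no-MK cells (a ratio of 0.00608, 0.00125 to 0.0179). Its ratio was 0.00209 without plus-MK cell 18 and 0.0101 without no-MK cell 16. The glycogen branching enzyme gene Gbe1 stood at 1.47 CPM in plus-MK cells and 38.7 CPM in no-MK cells, and Uap1, the last enzyme of UDP-N-acetylglucosamine synthesis, at 7.55 and 173 CPM. Gbe1 was 26.3-fold lower in plus-MK cells, 71.6-fold without plus-MK cell 17 and 17.1-fold without no-MK cell 15, and Uap1 22.9-fold lower, 64.1-fold without plus-MK cell 13. Gfpt1, the first enzyme of that hexosamine branch, stood at 4.67 and 20.5 CPM, and plus-MK cell 1 held 76.7% of its group's reads. Without it, Gfpt1 was 17.8-fold lower, against 4.38-fold with it.

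Genes of the hypoxia response and of pyruvate entry into mitochondria gave no common direction by pooled level. Of 26 hypoxia genes 5 are listed, and of the 4 read in 10 or more cells 2 were higher and 2 lower in plus-MK cells. Of all 3271 genes so read, 53.4% were lower by pooled level. Vhl, the fifth, was read in 9 cells. Egln1, a prolyl hydroxylase that marks HIF-1 for breakdown, had 56 reads in plus-MK cells and 583 in no-MK cells, 13.1-fold lower (9.96 to 17.6). No-MK cell 14 held 46.3% of its group's Egln1 reads, and without it the fold was 7.35. The mitophagy receptor gene Bnip3l stood at 70.2 CPM in plus-MK cells and 8.62 CPM in no-MK cells, a log2 ratio of 3.03, which was 2.28 without plus-MK cell 7 and 3.64 without no-MK cell 23. The cystine transporter gene Slc7a11 stood at 342 and 61.1 CPM, 5.61-fold higher (5.19 to 6.06), with 3.45-fold without plus-MK cell 9 and 10.8-fold without no-MK cell 9. Hif1a itself is not among the listed genes. Of 15 pyruvate genes 4 are listed. By pooled level Mpc1, Dld and Cs were higher in plus-MK cells and Pdhb lower. Pdhb had a ratio of 0.983 (0.920 to 1.05), and of 0.574 without plus-MK cell 19. By mean log level all 4 were lower, as were 72.2% of all genes read in 10 or more cells. These values compare cells with macrophage transcripts to cells with stromal transcripts, as above.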
